A study of Mus musculus with 8 samples.

Results

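The complement system was examined in the whole mouse uterus after deletion of Foxa2, through a list of 35 complement components, receptors and regulators. Each gene was represented by the probe set paired with its symbol alone, and 33 of the 35 were found, among 19938 genes tested in all. The other 2, C3 and Cfd, were not analysed here. The genes were listed by name and function, with earlier results of these data known.

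RNA came from 8 uteri on 8 arrays, 4 from Foxa2-deleted and 4 from control females. The Foxa2-deleted females had the genotype PgrCre/+ Foxa2flox/flox. Both Foxa2 alleles were floxed, and 1 allele of Pgr, the gene of the progesterone receptor, carried Cre recombinase, which acts in cells that use Pgr. The controls were Pgr+/+ Foxa2+/+ and had no Cre, so the effects of Foxa2, Cre and the Pgr genotype cannot be told apart. Females of both genotypes had been paired with vasectomised wild type males, and uteri were taken at day 3.5 of pseudopregnancy (plug at day 0.5). The labels give neither age nor strain. Values are log2 intensities, and differences are log2 values in Foxa2-deleted minus control uteri with the standard error (SE) of the limma fit.

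Complement is a cascade of plasma and tissue proteins that tags surfaces for uptake, recruits leukocytes and can assemble a pore in membranes. It is started by antibody-bound C1q (the classical pathway), by sugar-binding lectins (the lectin pathway), or by spontaneous turnover amplified by factor B (the alternative pathway). Soluble and membrane-bound regulators limit it on host cells. In the uterus complement genes are made by epithelium, stroma and macrophages, and several respond to estrogen.

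The Foxa2 probe set read 8.22, 8.20, 8.21 and 8.21 in Foxa2-deleted uteri and 8.61, 8.82, 8.74 and 8.73 in control uteri, in the order of replicates 1 to 4. The groups did not overlap, and the difference was -0.52 (SE 0.05, adjusted p = 0.0013, limma). Where this probe set lies relative to the floxed stretch is unknown. Pgr read 11.73, 11.35, 11.51 and 11.81 in Foxa2-deleted uteri and 11.15, 11.27, 11.24 and 11.26 in control uteri (difference 0.37, SE 0.10, adjusted p = 0.0428). The Pgr call ended on omission of a control or of Foxa2-deleted replicate 1 or 4 (adjusted p at most 0.105), with quantile normalisation (0.0505) and with adjustment over all probe sets (0.0576). Array medians ran from 8.25 to 8.32 over the 8 arrays. Arrays of Foxa2-deleted uteri correlated with each other at 0.985 to 0.990 across probe sets, and arrays of control uteri at 0.994 to 0.995. No detection call accompanies the values, so it is unknown which genes lay above background.

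Of the 33 complement genes, 3 rose in Foxa2-deleted uteri, 2 fell and 28 did not pass an adjusted p of 0.05. Those that rose were Cfb, Cfi and Clu, each by more than 1.5-fold, and those that fell, Masp1 and C9, did so by less. Over all genes tested, 11.1% passed, 4.5% as higher and 6.58% as lower (898 and 1311 genes, or 1082 and 982 with each array centred on its median). Of the complement genes 15.2% passed, 9.09% as higher and 6.06% as lower. With the 1.5-fold requirement 3 complement genes were higher and 0 lower, while over all genes 1.76% were higher and 1.51% lower. The median difference of the 33 genes was 0.0025, against 0.0075 for all genes, and the median size of the difference without its sign was 0.19 against 0.105. At an unadjusted p under 0.05 there were 13 complement genes, and 31.5% of all genes. The number that passed rested on the array set: without any 1 control, or without Foxa2-deleted replicate 1, 1 gene was higher and 0 were lower, and Cfb was that gene. The count of all changed genes was 2209 with all arrays and lay between 556 and 1111 without 1 of these.

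**Figure D1:**
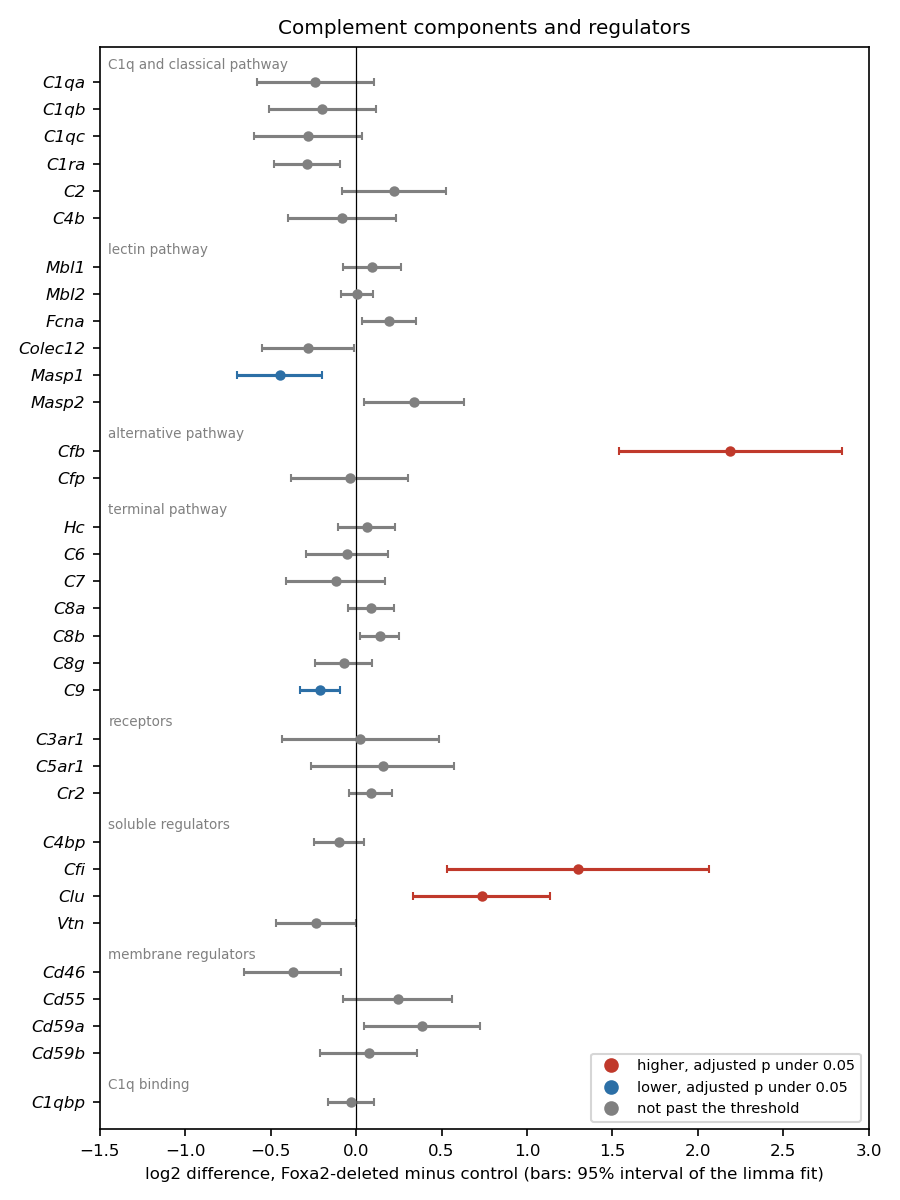
Log2 difference between Foxa2-deleted and control uteri (x axis) for the 33 complement genes, grouped by role, with points for the estimate and bars for its 95% interval in the limma fit (n = 4 uteri per genotype). Cfb at 2.19, Cfi at 1.30 and Clu lie to the right of 0 and past the threshold, Masp1 and C9 to the left, and the other 28 genes in grey did not pass.

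The alternative pathway gene Cfb showed the largest difference of the 33. It encodes factor B, the serine protease precursor that becomes the catalytic part of the alternative pathway convertase. Its probe set (10450325) read 11.12, 11.05, 12.47 and 11.18 in Foxa2-deleted uteri, against 9.13, 9.23, 9.23 and 9.47 in control uteri. Every Foxa2-deleted uterus lay above every control uterus, and Foxa2-deleted replicate 3 stood apart above the other Foxa2-deleted uteri. The means were 11.46 ± 0.68 in Foxa2-deleted and 9.27 ± 0.14 in control uteri (SD, n = 4 each), a 4.56-fold increase (log2 difference 2.19, SE 0.29, adjusted p = 0.00482). Without replicate 3 the log2 difference was 1.85 with an adjusted p of 1.7e-05. Cfb passed the threshold with any 1 array left out and under every other alternative tried, with adjusted p up to 0.0244.

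Cfb lies next to C2 in gene order on chromosome 17, and the 2 genes encode homologous proteases. C2, which serves the classical and lectin pathway convertase, read 8.79, 9.03, 9.44 and 8.90 in Foxa2-deleted uteri and 8.82, 9.0, 8.67 and 8.79 in control uteri. The groups overlapped, with Foxa2-deleted replicate 3 again the highest. Its difference was 0.22 (95% interval -0.09 to 0.53, adjusted p = 0.29), while the interval for Cfb ran from 1.54 to 2.84. The difference between the neighbours was not tested. Cfp, which encodes properdin, the stabiliser of the alternative convertase, read 9.94, 9.75, 10.15 and 9.49 in Foxa2-deleted uteri and 9.79, 10.17, 9.66 and 9.86 in control uteri. These values overlapped throughout, and the difference was -0.04 (adjusted p = 0.884).

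Among the soluble regulators, Cfi and Clu rose, and C4bp and Vtn did not pass. Cfi encodes factor I, the protease that inactivates complement fragments on host surfaces with the help of cofactors. Its probe set (10496001) read 8.15, 7.87, 9.65 and 8.94 in Foxa2-deleted uteri and 7.25, 7.43, 7.24 and 7.50 in control uteri. All Foxa2-deleted uteri were above all control uteri, but they spread over 1.78 log2 units among themselves, with replicate 3 the highest and replicate 2 the lowest. The means were 8.65 ± 0.80 and 7.36 ± 0.13 (SD, n = 4 each) in Foxa2-deleted and control uteri, 2.46-fold apart (log2 difference 1.30, SE 0.34, adjusted p = 0.0428). Leaving out a control, whichever it was, ended the call, as did leaving out Foxa2-deleted replicate 1 or 4 (adjusted p at most 0.113). It also ended with adjustment over all probe sets (adjusted p = 0.0573), and the log2 difference stayed between 0.97 and 1.56 throughout.

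Clu encodes clusterin, a secreted chaperone that binds the forming membrane pore and keeps it from inserting. Its probe set (10416057) read 10.69, 10.22, 11.16 and 10.49 in Foxa2-deleted uteri and 9.94, 9.82, 9.78 and 10.08 in control uteri. The groups did not overlap, and the smallest gap was between Foxa2-deleted replicate 2 and control replicate 4. Clu rose 1.66-fold, with means of 10.64 ± 0.40 in Foxa2-deleted and 9.91 ± 0.14 in control uteri (SD, n = 4 each; SE of the log2 difference 0.18, adjusted p = 0.0336). Clu no longer passed when a control, whichever it was, or Foxa2-deleted replicate 1 was left out (adjusted p at most 0.098).

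Vitronectin (Vtn), which like clusterin binds terminal complexes, read 8.70, 8.86, 8.39 and 8.76 in Foxa2-deleted uteri and 9.08, 8.92, 8.81 and 8.85 in control uteri. Foxa2-deleted replicate 2 lay within the control range and the other Foxa2-deleted uteri below it. The difference of -0.24 (SE 0.10) had an adjusted p of 0.155. C4bp, which encodes a chain of the C4b-binding protein, ranged from 6.78 to 7.0 in Foxa2-deleted and from 6.91 to 7.10 in control uteri (difference -0.10, adjusted p = 0.314).

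**Figure D2:**
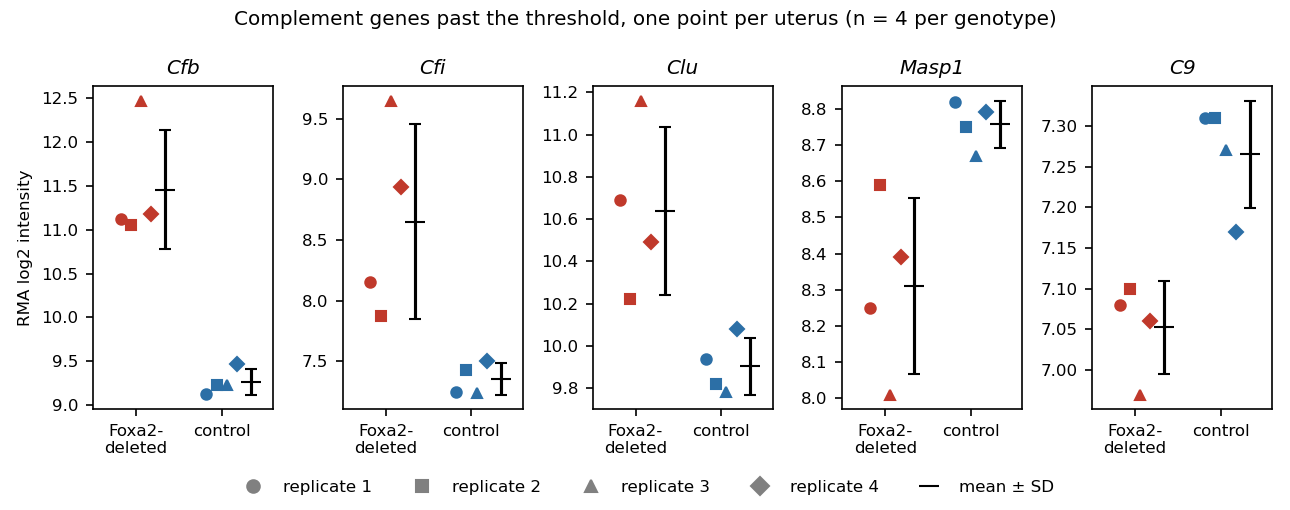
RMA log2 intensity (y axis, a separate scale in each panel) of the 5 complement genes past the threshold, with 1 symbol per uterus, Foxa2-deleted left of control, and the mean ± SD beside each group (n = 4). In all 5 panels the groups do not overlap, and Foxa2-deleted replicate 3 (triangle) lies farthest from the controls and replicate 2 (square) nearest.

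None of the 4 membrane regulators passed, and 2 of them had an unadjusted p under 0.05. Cd55 (decay-accelerating factor, which dissociates convertases) read 10.04, 9.86, 10.57 and 10.25 in Foxa2-deleted uteri and 9.76, 10.06, 9.92 and 10.01 in control uteri (difference 0.24, SE 0.14, adjusted p = 0.268). Its highest values were in Foxa2-deleted replicates 3 and 4, and replicates 1 and 2 fell inside the control range. Cd55b, its neighbour and paralog, was outside the 33 genes but in a wider list of complement genes. It read 7.32, 7.17, 7.40 and 7.34 in Foxa2-deleted uteri and 6.75, 7.08, 7.02 and 7.09 in control uteri and rose by 0.32 (SE 0.09, adjusted p = 0.045). Cd55b kept its call when Foxa2-deleted replicate 2 was left out and lost it on omission of each of the other arrays (adjusted p at most 0.102). It also lost the call with quantile normalisation (adjusted p = 0.0527), cyclic loess (0.0766), adjustment over all probe sets (0.0601) and array weights (0.0615). Since Cd55 and Cd55b are close relatives, how far their probe sets separate them is uncertain.

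Cd59a and Cd59b, adjacent paralogs on chromosome 2, encode membrane-anchored blockers of pore assembly. Cd59a read 11.09, 11.06, 10.35 and 10.84 in Foxa2-deleted uteri and 10.51, 10.54, 10.34 and 10.41 in control uteri. Here Foxa2-deleted replicate 3 lay among the controls and the other 3 above them, the reverse of its place in Cfb. The difference was 0.39 (SE 0.15, adjusted p = 0.121), and without Foxa2-deleted replicate 3 it was 0.55 and passed (adjusted p = 0.00623). That omission takes away the uterus nearest the controls, which by itself widens the difference. No other omission gave a pass (adjusted p at most 0.25, limma).

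Cd59b read 8.37, 8.27, 7.75 and 8.18 in Foxa2-deleted uteri and 8.05, 8.19, 7.96 and 8.08 in control uteri (difference 0.07, adjusted p = 0.714). As in Cd59a, Foxa2-deleted replicate 3 was the lowest of its group. Cross-hybridisation between these relatives was not tested.

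Cd46, which encodes a cofactor for factor I, read 7.87, 7.83, 7.72 and 8.31 in Foxa2-deleted uteri and 8.13, 8.36, 8.29 and 8.44 in control uteri. Of the Foxa2-deleted uteri only replicate 4 reached the control range. The difference was -0.37 (SE 0.13, adjusted p = 0.0848), and without replicate 4 it was -0.50 and passed (adjusted p = 0.0129). Here too the omitted uterus was the one nearest the controls, and no other omission gave a pass (adjusted p at most 0.199, limma). In rodents Cd46 is known mainly from the testis, and its function on most host cells is carried by Cr1l. Cr1l, outside the 33 genes and named after its values were seen, lies next to Cd46 in gene order. It ranged from 9.13 to 9.40 in Foxa2-deleted and from 9.27 to 9.40 in control uteri (difference -0.06, adjusted p = 0.57).

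Of the 6 lectin pathway genes, Masp1 fell and the other 5 did not pass, though 3 of these had an unadjusted p under 0.05. Masp1 encodes a serine protease that circulates bound to the sugar-binding lectins. Its probe set (10438708) read 8.25, 8.59, 8.01 and 8.39 in Foxa2-deleted uteri and 8.82, 8.75, 8.67 and 8.79 in control uteri. The groups did not overlap, with Foxa2-deleted replicate 3 the lowest. Masp1 was 1.36-fold lower, with means of 8.31 ± 0.24 in Foxa2-deleted and 8.76 ± 0.07 in control uteri (SD, n = 4 each; log2 difference -0.45, SE 0.11, adjusted p = 0.0367). Masp1 no longer passed when a control, whichever it was, or Foxa2-deleted replicate 1 was left out (adjusted p at most 0.101).

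Masp2, whose product cleaves C4 and C2, had the opposite sign. It read 7.71, 7.75, 7.32 and 8.03 in Foxa2-deleted uteri and 7.40, 7.42, 7.36 and 7.27 in control uteri. Foxa2-deleted replicate 3 lay among the controls and the other 3 above them. The difference was 0.34 (SE 0.13, adjusted p = 0.113), and without replicate 3 it was 0.47 and passed (adjusted p = 0.0145). Leaving out the uterus nearest the controls had to widen the difference, and no other omission gave a pass (adjusted p at most 0.236, limma).

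Colec12, a collectin receptor of the cell surface, read 10.63, 11.00, 10.37 and 10.82 in Foxa2-deleted uteri and 11.02, 11.01, 10.90 and 11.01 in control uteri. Foxa2-deleted replicate 2 sat among the controls and the rest below them. Its difference was -0.28 (SE 0.12, adjusted p = 0.147), and without replicate 2 it was -0.38 and passed (adjusted p = 0.0404). Again the omitted uterus was the one nearest the controls, and no other omission gave a pass (adjusted p at most 0.264, limma). The ficolin gene Fcna read 8.11, 8.12, 8.13 and 7.98 in Foxa2-deleted uteri and 8.06, 7.91, 7.79 and 7.81 in control uteri (difference 0.19, SE 0.07, adjusted p = 0.099). The mannose-binding lectin genes Mbl1 and Mbl2, textbook products of the liver, differed by 0.09 (adjusted p = 0.41) and 0.0025 (adjusted p = 0.974).

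Of the 7 terminal pathway genes, which encode the parts of the membrane pore, C9 fell and 6 did not pass. C9, the subunit that polymerises into the pore, read 7.08, 7.10, 6.97 and 7.06 in Foxa2-deleted uteri and 7.31, 7.31, 7.27 and 7.17 in control uteri (probe set 10422748). The groups did not overlap, and the whole span over the 8 uteri was small. C9 was 1.16-fold lower (log2 difference -0.21, SE 0.05, adjusted p = 0.0344) and lay in the dimmest 25% of genes by mean intensity. The C9 call ended on omission of a control or of Foxa2-deleted replicate 1 or 3 (adjusted p at most 0.101) and when each array was centred on its median (adjusted p = 0.0501).

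The other terminal genes stayed within 0.14 of 0 on the log2 scale. C8b, which read 7.48, 7.54, 7.58 and 7.48 in Foxa2-deleted uteri against 7.43, 7.28, 7.39 and 7.43 in control uteri, did not overlap between the groups but differed by 0.14 only (adjusted p = 0.108). C8a, its neighbour, differed by 0.09 (adjusted p = 0.353) and C8g by -0.07 (adjusted p = 0.519). Hc, the mouse gene for C5, differed by 0.06 (adjusted p = 0.583), C6 by -0.05 (adjusted p = 0.758) and C7 by -0.12 (adjusted p = 0.542). In C7 a single uterus, Foxa2-deleted replicate 2 at 7.60, stood above the other Foxa2-deleted uteri, which ran from 7.06 to 7.11, and above the controls at 7.12 to 7.45. Of the 33 complement genes 8 lay in the dimmest 25%, and 5 of these 8 belong to the terminal pathway.

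None of the 6 C1q and classical pathway genes passed, and 1, C1ra, had an unadjusted p under 0.05. C1qa, C1qb and C1qc, which lie side by side on chromosome 4 and encode the chains of C1q, behaved alike from uterus to uterus. C1qa read 10.46, 9.93, 10.16 and 9.79 in Foxa2-deleted uteri and 10.17, 10.56, 10.14 and 10.43 in control uteri. C1qb read 11.54, 11.16, 11.27 and 10.93 in Foxa2-deleted uteri and 11.37, 11.65, 11.17 and 11.50 in control uteri. C1qc read 10.61, 10.18, 10.43 and 10.01 in Foxa2-deleted uteri and 10.55, 10.79, 10.34 and 10.67 in control uteri. In all 3 genes the Foxa2-deleted uteri ranked replicate 1 highest, then 3, 2 and 4, and the controls ranked replicate 2 highest, then 4, 1 and 3. The genotypes overlapped in each, with differences of -0.24 (95% interval -0.58 to 0.10), -0.20 (-0.51 to 0.12) and -0.28 (-0.60 to 0.04) for C1qa, C1qb and C1qc, and adjusted p from 0.203 to 0.352.

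The 250 bases upstream of the start of C1qb and C1qc are shown because these neighbours kept the same order over the arrays, and those of C9 because it is the gene past the threshold with an entry in the promoter table (RefSeq, GRCm38.p6, each 5′ to 3′ on the strand of its gene). C1qb is at chr4:136886201-136886450 on the minus strand, C1qc at chr4:136892915-136893164 on the minus strand and C9 at chr15:6445096-6445345 on the plus strand. Capitals mark matches, on either strand, to the motifs GGTCA (estrogen response element repeat), an NF-kB-like motif (GGGA, any 4 bases, CC) and TTGCNNAA (C/EBP-like), which can overlap each other.
C1qb: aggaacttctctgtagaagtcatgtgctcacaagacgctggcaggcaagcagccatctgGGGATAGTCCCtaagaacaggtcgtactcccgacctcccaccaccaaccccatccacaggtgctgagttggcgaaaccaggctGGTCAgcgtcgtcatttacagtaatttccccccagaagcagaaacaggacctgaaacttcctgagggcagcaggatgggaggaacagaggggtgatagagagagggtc
C1qc: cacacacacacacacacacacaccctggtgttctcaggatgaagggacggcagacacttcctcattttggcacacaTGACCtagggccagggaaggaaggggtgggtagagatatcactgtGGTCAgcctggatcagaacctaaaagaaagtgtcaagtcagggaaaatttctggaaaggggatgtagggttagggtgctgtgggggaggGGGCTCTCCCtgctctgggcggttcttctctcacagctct
C9: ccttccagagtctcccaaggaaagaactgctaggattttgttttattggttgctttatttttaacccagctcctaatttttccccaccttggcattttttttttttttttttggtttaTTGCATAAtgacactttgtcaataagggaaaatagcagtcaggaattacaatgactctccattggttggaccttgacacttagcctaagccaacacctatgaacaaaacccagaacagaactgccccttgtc

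Both C1qb and C1qc held GGTCA and the NF-kB-like motif, and C9 held TTGCNNAA and neither of these. Windows of the same length were present for 25 of the 33 complement genes. GGTCA was found in 10 of the 25 and in 38.4% of all genes in the table, and the NF-kB-like motif in 6 of the 25 and 19.7% of all genes. TTGCNNAA was found in 1 of the 25 (10.8% of all genes), and the STAT-like letters TTCNNNGAA in 3 (8.1% of all genes). The forkhead letters TGTTTAC, a form of the sequence that FOXA proteins bind, were found in 0 of the 25, against 3.5% of all genes. A match is a description of letters in these windows and not of binding, and 0 matches says only that the letters are not in them.

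The remaining classical pathway genes were C1ra and C4b. C1ra, a protease of the C1 complex, read 9.28, 9.37, 8.98 and 9.26 in Foxa2-deleted uteri and 9.44, 9.47, 9.52 and 9.61 in control uteri. All Foxa2-deleted uteri were below all controls, yet the difference of -0.29 (SE 0.08) missed the threshold (adjusted p = 0.06). C1ra passed without Foxa2-deleted replicate 2, the one nearest the controls (adjusted p = 0.0339). It passed with no other array left out (adjusted p at most 0.153, limma). A second probe set shared by C1ra and C1rb was not used. C4b read 10.08, 9.66, 9.71 and 9.42 in Foxa2-deleted uteri and 9.81, 9.77, 9.59 and 10.03 in control uteri, with the highest and the lowest of the 8 values both in the Foxa2-deleted group (difference -0.08, adjusted p = 0.71). C4b has a near-identical copy, C4a, so its signal may be shared. C1qbp, a mainly mitochondrial protein that also binds C1q heads, ranged from 10.28 to 10.47 in Foxa2-deleted and from 10.33 to 10.45 in control uteri (difference -0.03, 95% interval -0.17 to 0.11, adjusted p = 0.753).

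None of the 3 receptor genes passed, at an adjusted or an unadjusted threshold. C3ar1, the receptor for the anaphylatoxin C3a on myeloid cells, read 10.70, 10.11, 10.80 and 10.17 in Foxa2-deleted uteri and 10.15, 10.87, 10.19 and 10.47 in control uteri. Both genotypes held high and low uteri, and the difference was 0.03 (95% interval -0.44 to 0.49, adjusted p = 0.944). C5ar1, the C5a receptor of neutrophils and macrophages, read 8.50, 8.24, 9.07 and 8.13 in Foxa2-deleted uteri and 8.28, 8.42, 8.16 and 8.46 in control uteri. Only Foxa2-deleted replicate 3 lay clearly above the controls (difference 0.16, SE 0.19, adjusted p = 0.59). Cr2, the B cell receptor for complement fragments, ranged from 6.59 to 6.66 in Foxa2-deleted and from 6.42 to 6.64 in control uteri (difference 0.09, adjusted p = 0.314).

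**Figure D3:**
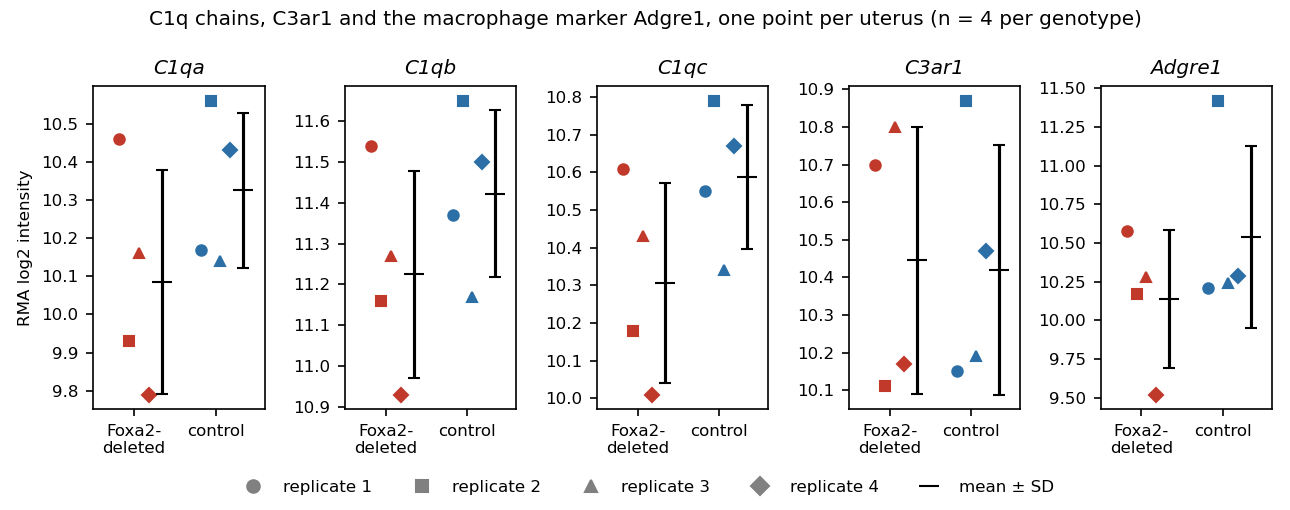
RMA log2 intensity (y axis, a separate scale in each panel) of the 3 C1q chain genes, C3ar1 and the macrophage marker Adgre1, with 1 symbol per uterus, Foxa2-deleted left of control, and the mean ± SD beside each group (n = 4). The groups overlap in all 5 panels, and control replicate 2 (square) is the highest control in each.

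C1q and C3ar1 are textbook products of macrophages, and a list of 8 macrophage markers was set beside them. Of the 8, 1 rose (Cd163, difference 0.25, adjusted p = 0.0487, limma) and 0 fell, with 2 at an unadjusted p under 0.05. The median difference was 0.07. The 1 call was absent when any array except control replicate 1 was left out, and under cyclic loess and adjustment over all probe sets. Both filters on dim genes removed Cd163, so it was not tested there. The intensities of the 8, added on the linear scale, ran from 8255 to 12370 in Foxa2-deleted uteri and from 8872 to 11846 in control uteri, so the ranges overlapped. Adgre1, which encodes F4/80, read 10.58, 10.17, 10.28 and 9.52 in Foxa2-deleted uteri and 10.21, 11.42, 10.24 and 10.29 in control uteri. Its Foxa2-deleted uteri ranked as in the C1q genes, and control replicate 2 was the highest control in Adgre1 and the C1q genes. The macrophage list did not share this as a whole. Mrc1 had the same order of Foxa2-deleted uteri, but Cd68, Csf1r, Cd163, Aif1 and Fcgr1 had others. Control replicate 2 was not the highest control in Cd68, Csf1r, Cd163, Mrc1 or Fcgr1. Adgre1 differed by -0.40 (adjusted p = 0.387, limma) and Cd68 by 0.41 (adjusted p = 0.148). In whole tissue, fewer cells of a type and less RNA per cell cannot be told apart.

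Across the wider list of other complement genes, 28 of 32 were analysed, of which 2 rose, 3 fell and 23 did not pass. These shares, 17.9% changed in all, stand beside 11.1% of all genes, and the median difference was 0.0025. Besides Cd55b, Cpn1 rose, and both lay in the dimmest 25% of genes by mean intensity. Cpn1 encodes the catalytic subunit of carboxypeptidase N, which trims the anaphylatoxins. It read 7.81, 7.14, 7.60 and 7.16 in Foxa2-deleted uteri and 6.82, 6.82, 6.75 and 6.67 in control uteri, with no overlap (difference 0.66, SE 0.14, adjusted p = 0.0254). Omitting a control, whichever it was, ended the Cpn1 call (adjusted p at most 0.0801).

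Among the genes that fell, Itgax, the alpha chain of complement receptor CR4 on dendritic cells and other leukocytes, read 8.33, 8.05, 8.22 and 8.27 in Foxa2-deleted uteri and 8.95, 8.96, 8.90 and 9.03 in control uteri. The 4 values of each genotype were close together and well apart from the other (difference -0.74, SE 0.07, adjusted p = 7.9e-04), and the call held with any 1 array left out. Itgam, the alpha chain of the related receptor CR3, which lies next to Itgax, was named after its values were seen. It read 9.65, 9.40, 10.52 and 9.11 in Foxa2-deleted uteri and 9.27, 10.15, 9.21 and 9.61 in control uteri, with full overlap (difference 0.11, SE 0.31, adjusted p = 0.83). Itgb2, the beta chain that both receptors share, read 9.69, 9.55, 9.82 and 9.25 in Foxa2-deleted uteri and 9.90, 10.42, 9.86 and 10.04 in control uteri (difference -0.48, SE 0.15, adjusted p = 0.0718).

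Pros1, which encodes protein S, an anticoagulant that circulates with the C4b-binding protein, read 10.05, 10.16, 9.80 and 10.20 in Foxa2-deleted uteri and 10.40, 10.49, 10.40 and 10.61 in control uteri. It fell by 0.42 (SE 0.09, adjusted p = 0.0254), which did not hold when a control or Foxa2-deleted replicate 1 was omitted (adjusted p at most 0.0794). Cd93, an endothelial and myeloid surface protein once described as a C1q receptor, read 10.67, 11.28, 10.46 and 11.07 in Foxa2-deleted uteri and 11.49, 11.42, 11.50 and 11.42 in control uteri. It fell by 0.59 (SE 0.16, adjusted p = 0.0475). Omitting a control, or Foxa2-deleted replicate 1 or 3, ended the Cd93 call (adjusted p at most 0.119), and so did 3 other scalings (adjusted p from 0.0516 to 0.0568). The call also ended with adjustment over all probe sets (adjusted p = 0.0628) and with trend and robust settings of eBayes (0.0535). Cd93 lies next to Thbd in gene order.

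Of the other complement genes that did not pass, the 6 with the smallest p were Itgb2, Ptx3 (a pattern recognition protein that binds C1q; difference -0.27, adjusted p = 0.0666), Csmd2 (0.65, adjusted p = 0.0874), Csmd1 (-0.18, adjusted p = 0.12), Susd4 (0.34, adjusted p = 0.138) and C1s1 (-0.25, adjusted p = 0.142). C1s1 encodes the C1 protease that cleaves C4 and C2 and lies next to C1ra. It read 10.99, 10.92, 10.50 and 10.97 in Foxa2-deleted uteri and 11.04, 11.09, 11.11 and 11.13 in control uteri. As in C1ra, all Foxa2-deleted uteri were below all controls and replicate 3 was the lowest.

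The Foxa2-deleted uteri differed among themselves in complement genes. In 27 of the 33 genes (81.8%) the SD was larger in Foxa2-deleted than in control uteri, as it was in 70.3% of all genes tested. In all 5 complement genes past the threshold, Foxa2-deleted replicate 3 lay farthest from the control mean and replicate 2 nearest to it. Over all 2209 changed genes, replicate 3 was farthest in 49.7% and replicate 2 nearest in 51.2%. Without replicate 3, 5 complement genes were higher and 1 lower, and the 5 were Cfb, Cfi, Clu, Cd59a and Masp2. Without replicate 2, 3 were higher and 4 lower, the 4 being Masp1, C9, C1ra and Colec12. For Cd59a, Masp2, C1ra and Colec12 the omitted uterus was the Foxa2-deleted one nearest the controls, which by itself widens the difference. In 7 of the 33 genes (21.2%) the 4 values of 1 genotype all lay above the 4 of the other, against 21.1% of all genes tested.

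**Figure D4:**
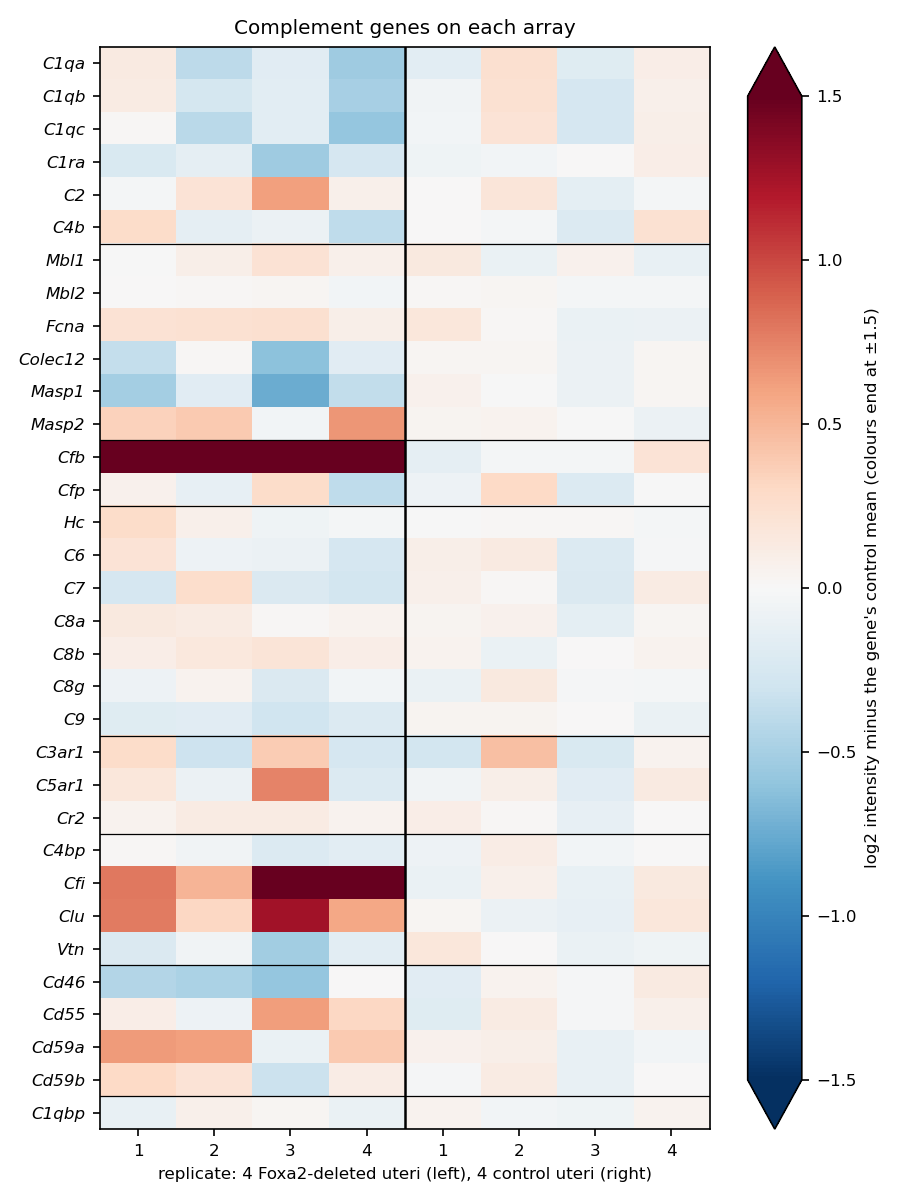
Log2 intensity of each of the 33 complement genes (rows, grouped by role) minus that gene's control mean, in colour, on the 4 Foxa2-deleted arrays (left) and the 4 control arrays (right). Cfb, Cfi and Clu are red on all 4 Foxa2-deleted arrays, the C1q rows share 1 pattern over the arrays, and Cd59a and Masp2 are paler on Foxa2-deleted replicate 3.

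Markers of several cell types moved between the same uteri, and their part in the complement differences was not tested. Of 7 neutrophil markers, 2 rose and 0 fell (6 at an unadjusted p under 0.05), and their summed linear intensity ran from 1637 to 3955 in Foxa2-deleted uteri and from 1072 to 1178 in control uteri. The 2 that rose were Ly6g (difference 1.21) and Cxcr2 (difference 2.33). Cxcr2 was dim in control uteri, at 5.56 to 5.93. Without the dimmest 25% of genes 1 neutrophil marker was higher. Without the lower 50%, where neither Ly6g nor Cxcr2 was tested, 0 were. The neutrophil granule gene S100a8 read 7.17, 7.50, 8.67 and 7.34 in Foxa2-deleted uteri and 6.87, 6.67, 6.57 and 6.85 in control uteri, so its highest value was also in replicate 3. S100a8 did not pass (difference 0.93, adjusted p = 0.0696). Of 7 pan-epithelial markers, 4 rose and 0 fell, with sums of 12701 to 25192 in Foxa2-deleted and 8839 to 9838 in control uteri. All 7 estrogen-responsive genes rose, and their mean lay 3.41, 2.66, 3.92 and 2.82 above the control mean on Foxa2-deleted replicates 1 to 4. It was highest in replicate 3 and lowest in replicate 2, as in Cfb and Clu, though in Cfb replicates 1, 2 and 4 lay close together (11.12, 11.05 and 11.18). The means of the neutrophil and pan-epithelial lists were also highest in replicate 3 and lowest in replicate 2. Over all changed genes, replicate 3 was farthest from the control mean in 49.7% and replicate 2 nearest in 51.2%. Of 6 progesterone-responsive genes 5 fell and 0 rose.

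Of 7 endothelial markers 6 fell and 0 rose, with sums of 6106 to 10030 in Foxa2-deleted and 12696 to 13366 in control uteri. Their mean lay 1.08 below the control mean on Foxa2-deleted replicate 3 and 0.36 below it on replicate 2. Masp1, C9 and Cd93 were likewise lowest on replicate 3 and, among Foxa2-deleted uteri, highest on replicate 2. Pros1 was highest on replicate 4, and Itgax was lowest on replicate 2. Over all changed genes, replicate 3 was farthest from the control mean in 49.7% and replicate 2 nearest in 51.2%, so this order is not particular to these genes. Of 7 NK and T cell markers 5 fell, with sums of 1839 to 2700 in Foxa2-deleted and 3137 to 3775 in control uteri. Those that fell were Ncr1, Klrb1c, Nkg7, Gzma and Prf1. The T cell markers Cd3e (difference 0.17, adjusted p = 0.263) and Cd3g (-0.08, adjusted p = 0.849) did not pass. Of 6 gland markers 5 fell, with sums of 805 to 842 in Foxa2-deleted and 2594 to 4371 in control uteri. The gland list holds Foxa2 itself, the deleted gene, so 4 of the 5 that fell are other genes. Hepatocyte markers, the textbook site of plasma complement, differed little: 0 of 6 passed (1 at an unadjusted p under 0.05), and their sums were 1132 to 1221 in Foxa2-deleted and 1036 to 1150 in control uteri. The albumin gene Alb read 6.84 to 7.15 in Foxa2-deleted and 6.75 to 7.05 in control uteri. With 1 array left out, the number that passed ran from 0 to 5 for the neutrophil, 2 to 5 for the pan-epithelial, 3 to 7 for the endothelial, 2 to 5 for the NK and T cell and 0 to 6 for the progesterone-responsive list, and stayed at 7 for the estrogen-responsive list. No marker is listed at 0, and without detection calls absence cannot be judged.

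**Figure D5:**
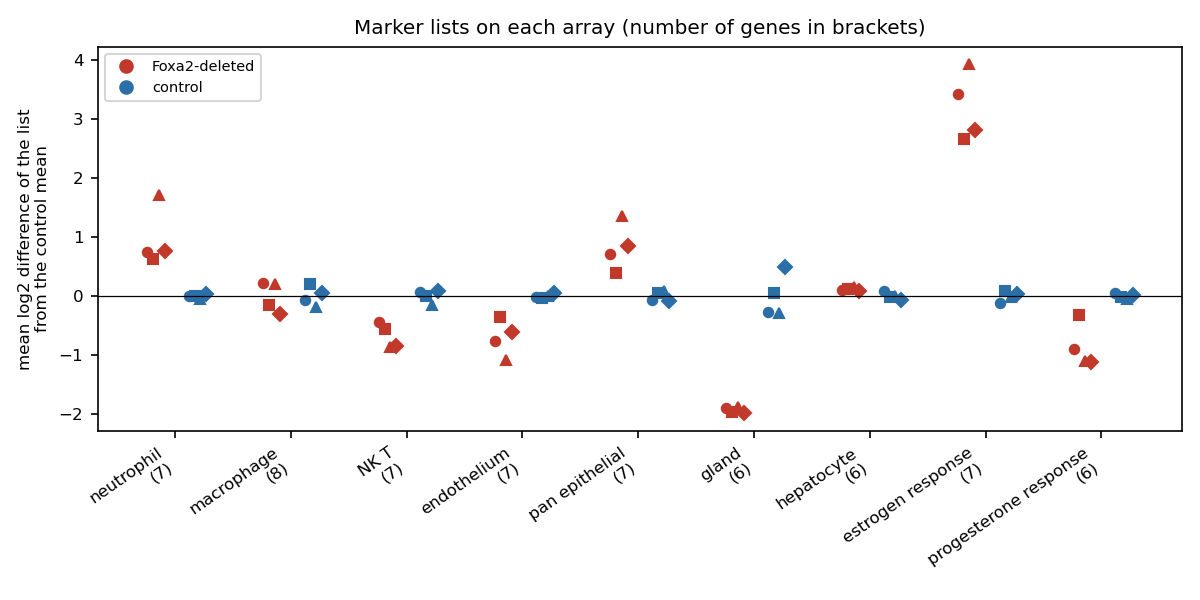
Mean log2 difference of each marker list from its own control mean (y axis) on each array, for Foxa2-deleted (red, left) and control uteri (blue, right), with circle, square, triangle and diamond for replicates 1 to 4. The neutrophil, pan-epithelial and estrogen-responsive lists are higher on all 4 Foxa2-deleted arrays, the endothelial, NK and T cell, gland and progesterone-responsive lists lower, and the macrophage list overlaps. Within the NK and T cell list, the T cell markers Cd3e and Cd3g did not pass the threshold.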

How the data were processed

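Total RNA (150 ng) from each whole uterus was labelled with biotin and put on 1 array, per the labels' protocols, with no pooling. The labels call the replicates biological. The authors' deposited values are log2 intensities made with RMA (background correction, normalisation between arrays and probe summary), per the submitters' processing notes, which also name limma; neither gives a version, genome build or probe annotation. RMA understates changes of dim genes. The number of arrays limits the precision. Groups and replicate numbers came from the titles.

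Of 35556 probe sets, 21789 had 1 symbol in GEO's platform annotation, 1621 several and 12146 none. For a gene with several probe sets the one with the highest mean was used, giving 19938 genes; each complement gene had 1. Of the 21789, 21698 matched RefSeq genes (GRCm38.p6) by Entrez identifier, with 0 symbols changed; gene order came from that table. Differences were fitted with lmFit and eBayes (limma 3.58.1, R 4.3.3) on all 8 arrays without covariates, adjusted by Benjamini-Hochberg over all genes and called at adjusted p under 0.05. The fit was first tested on simulated data.

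The complement genes, marker lists and motifs were chosen with earlier results of these data known. Named were all complement genes of the list, the changed members of the wider list and the 6 unchanged ones with smallest p, and up to 3 markers per list in list order. Further macrophage, neutrophil and NK and T cell markers were named after their values were seen. Promoter windows are RefSeq's, 250 bases before the start. Alternatives were 3 scalings, 2 filters on dim genes, averaging probe sets, adjustment over all probe sets, 2 variance or weight models, a replicate block and leaving out each array.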

Additional observations from a re-analysis of the deposited data

Results flagged for a closer look

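In each genotype the highest or lowest of 4 uteri was set against the rest, for 40 genes and 80 groups, and 5 groups held a uterus whose gap to its nearest neighbour was a larger share of the group's range than Dixon's 95% critical value. Such a gap is met by chance in about 1 group in 20. Cfb read 12.47 on Foxa2-deleted replicate 3, with 11.05 to 11.18 on the other Foxa2-deleted arrays. C7 read 7.60 on Foxa2-deleted replicate 2, with 7.06 to 7.11 on the others. Fcna read 7.98 on Foxa2-deleted replicate 4, with 8.11 to 8.13 on the others. Among the controls, replicate 3 was low for both Colec12 (10.90, with 11.01 to 11.02 on the others) and C8a (7.0, with 7.18 to 7.21 on the others).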

How the results depend on the processing

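Of the 2209 changed genes, 898 were higher and 1311 lower, and with each array centred on its median 1082 and 982. On leaving out 1 array, changed genes numbered 556 to 3059, complement genes higher 1 to 5 and complement genes lower 0 to 4 (4 to 7 lower at an unadjusted p under 0.05, limma). Complement genes lower numbered 1 under centring, 1 without the dimmest 25% of genes (C9 not tested) and 0 without the lower 50%, where Masp1, C9 and Cfi were not tested and 2 genes had an unadjusted p under 0.05. With array weights 5 were higher and 4 lower. The labels do not say whether the replicate numbers pair the uteri. Deviations of same-numbered arrays correlated at -0.08 to 0.07 across probe sets, which cannot exclude a pairing that touches only some genes. With the replicate number as a block, 1062 genes changed, 1 complement gene was higher (Cfb) and 0 were lower (6 at an unadjusted p under 0.05), and the calls of Pgr (adjusted p = 0.0777), Cd55b (0.080), Cd93 (0.0804) and the 1 macrophage marker ended. Genes that did not pass changed sign in places: Cfp was 0.0067 and C1qbp 0.0044 under cyclic loess, and C3ar1 -0.0266 with array weights, and with 1 array left out the ranges were -0.0933 to 0.175 for C3ar1, -0.143 to 0.0767 for Cfp, -0.0083 to 0.11 for Hc, -0.04 to 0.27 for C5ar1, -0.0033 to 0.203 for Cd59b, -0.0083 to 0.0183 for Mbl2, -0.203 to 0.0167 for C4b and -0.138 to 0.015 for C6. The causes were not tested.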
